A study of Rattus norvegicus with 47 samples.

Results

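The comparison is of lung RNA taken 6 months after rats had breathed silica dust or filtered air, described over all genes with adequate counts. Its members are the 6 silica and 5 air lung libraries of that time, 11 of the 47 libraries of the series, chosen by tissue, time and treatment as labelled. All animals were male Fischer 344 rats described as healthy, which are an inbred strain, housed in pairs and of an age the labels do not state. The air group (animals 49, 51, 52, 53 and 54) had breathed filtered air in whole-body chambers. The silica group (animals 58, 59, 60, 61, 62 and 64) had breathed Min-U-Sil 5, a fine crystalline silica, on 5 days, 6 h daily and at 15 mg/m3. The series also holds lung libraries of 1 day after exposure, 12 in number and from other animals, which are used below only to set the later differences beside the earlier ones, and blood libraries, which are not used here. The labels name neither chamber nor cage, so a difference between treatments cannot be told apart from one between chambers, and p-values measure the spread between animals only.

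Inhaled crystalline silica is not broken down in the lung. Alveolar macrophages take the particles up into lysosomes, where the particles can damage the membrane, and dying macrophages release them to be taken up again, so that the lung goes on meeting the dust long after exposure ends. Silica lung disease is known for chemokine release, for macrophages loaded with surfactant lipid, for enlarged alveolar type 2 cells with excess surfactant, and for collagenous nodules.

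Adequate counts for testing were found in 15309 of 30045 genes. Of these, 2484 passed the test (16.2%; edgeR quasi-likelihood test, Benjamini-Hochberg adjusted p below 0.05, the test behind every adjusted p below), 1507 higher (9.84%) and 977 lower (6.38%) in silica lungs. Large changes were mostly rises: 158 genes (1.03%) were at least 2-fold higher and 9 (0.0588%) at least 2-fold lower. In 1065 genes (6.96%) every silica lung lay above every air lung, and in 536 (3.5%) every silica lung lay below. Differences are given as log2 silica over air ± SE, and levels as CPM, each gene's count scaled to its library's total. CPM values are not corrected for transcript length and so are compared between libraries and not between genes. The median over all genes tested was log2 -0.008.

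Total counts were 12119235 to 13558156 in air and 12830088 to 19767346 in silica lungs, and the group means differed (exact permutation p = 0.0216, two-sided). Adjusted over the 22 tests of the design (the total, 2 shares and the summed level of each of 19 cell marker lists) p was 0.0433, a call that leaving out any of air 51, 52, 53 or 54 or silica 59, 60, 61 or 62 ended (adjusted p 0.0524 to 0.0952). After every library was thinned at random to the smallest total, 2273 genes passed. The lung markers Sftpc, Scgb1a1, Cldn18 and Cdh5 were abundant in all 11 libraries, and the liver marker Alb did not exceed 0.309 CPM in any. Globin RNA took 0.639% ± 0.0936 of counts in air and 0.485% ± 0.0800 in silica lungs (SD, n = 5 and 6; exact permutation p = 0.0303, adjusted p = 0.0513 over the same tests), which misses the threshold, but passed it without air 54 (adjusted p = 0.0349) or silica 61 (0.0437). The choice of tests adjusted together decided both: over the total and 2 shares alone both had an adjusted p of 0.0455, and over these with 4 marker lists of non-lung cells 0.0606. The set of 3 was run first, and the other sets after its p-values had been seen. Of the 10 tested red cell genes 0 rose and 1 fell. Heart muscle genes, 17 listed and with Nppa and Nppb at 0 everywhere, summed to 574 and 334 CPM in air lungs 49 and 51, to 17.3 to 80.8 CPM in the other air lungs and to 38.5 to 271 CPM in silica lungs, and 0 of 12 tested passed. In a principal component analysis the first component held 27.3% of the variance and placed all 5 air lungs below 0 and all 6 silica lungs above, as the plot of libraries shows.

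**Figure D1:**
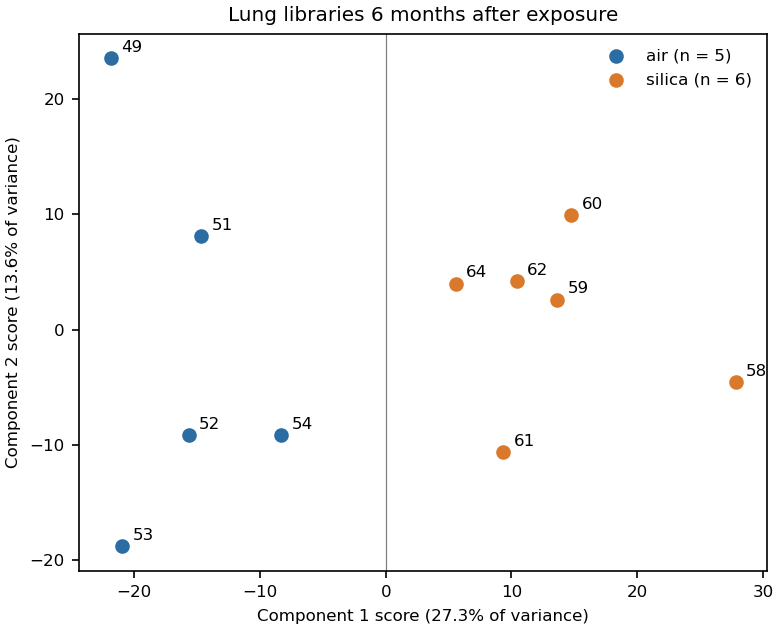
Principal components of log2 CPM over all 15309 genes tested, 1 point per lung library, labelled by animal number (blue, 5 air; orange, 6 silica), with each axis in component score units. Air lungs lie between -21.9 and -8.33 on the first component and silica lungs between 5.55 and 27.8, while the second component (13.6% of the variance) mixes the groups.

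Genes of lipid-laden macrophages rose in silica lungs. Among 23 tested members of 25, 18 rose and 1 fell, beside 9.84% and 6.38% of all genes, and the list's median was log2 0.36. Every list count below is likewise to be set beside these shares of all genes. The lists here and below were chosen with earlier results of these data known, so such shares are a description and not a test. In whole lung, more cells of a type and more RNA per cell cannot be told apart, here and in every group below. Gpnmb, a membrane glycoprotein of phagocytes under lysosomal load, stood at 603, 793, 819, 576 and 872 CPM in air lungs 49, 51, 52, 53 and 54, an order kept for the air values below. In the silica lungs it stood at 1093, 1266 and 1711 CPM (lowest, median and highest, as below), with no overlap between the groups (log2 0.83 ± 0.13, adjusted p = 0.00137). Fabp4, a fatty acid carrier of macrophages and fat cells, was at 11.6, 13.9, 13.2, 11.7 and 20.5 CPM in air and 20.8, 32.3 and 53.7 CPM in silica lungs (log2 1.27 ± 0.22, adjusted p = 0.00207). Air lung 54 at 20.5 CPM came close to the lowest silica lung, and the silica values spread widely. Fabp5, a related carrier, rose from 126 ± 16.4 to 235 ± 42.4 CPM (SD; log2 0.90 ± 0.12, adjusted p = 0.000407).

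Receptors that take up modified lipid and particles were among those that rose. Msr1, a scavenger receptor, rose from 73.7 to 118 CPM (log2 0.68 ± 0.097, adjusted p = 0.00072), and Cd36, another, rose less (log2 0.29 ± 0.046, adjusted p = 0.0012). The phagosome protein Cd68 went from 81.5 to 139 CPM (log2 0.77 ± 0.11) and the lectin Lgals3 from 283 to 506 CPM (log2 0.84 ± 0.12). Genes of lipid storage and export rose by smaller amounts: the droplet coat gene Plin2 by log2 0.36 ± 0.061, the cholesterol esterifying enzyme Soat1 by log2 0.53 ± 0.076, the cholesterol exporter Abcg1 by log2 0.47 ± 0.068 and the lysosomal lipase Lipa by log2 0.35 ± 0.054. Apoe, a carrier of exported lipid, did not pass (log2 -0.04 ± 0.08, adjusted p = 0.781), nor did the exporter Abca1 (log2 0.14 ± 0.055, adjusted p = 0.111). The single fall was that of Pltp, a phospholipid transfer protein (log2 -0.16 ± 0.039, adjusted p = 0.0166). Neither Apoc1 nor Marco had enough counts to be tested.

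Mmp12, the macrophage elastase, rose 4.70-fold and Spp1, which encodes osteopontin, 8.32-fold. Mmp12 was at 6.93, 12.7, 10.7, 4.57 and 13.7 CPM in air and 25.98, 43.5 and 68.3 CPM in silica lungs (log2 2.23 ± 0.28, adjusted p = 0.000322), without overlap. Spp1 was at 5.42, 4.30, 5.12, 1.27 and 29.9 CPM in air and 24.3, 79.4 and 138 CPM in silica lungs, so that air lung 54 lay above the lowest silica lung (log2 3.06 ± 0.62, adjusted p = 0.00565). Without air lung 54 the difference in Spp1 was log2 4.23 (adjusted p = 0.000809).

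Lysosome genes rose together in small steps. Of 40 tested members of 40 subunits of the proton pump and lysosomal enzymes, 32 rose and 0 fell, with a median of log2 0.23 and a largest member of log2 1.379. That count ran from 27 to 33 under the other settings and left-out libraries, the test against a 1.5-fold change aside. The largest was Atp6v0d2, a pump subunit of macrophages and osteoclasts, at 5.49, 6.57, 8.43, 5.47 and 6.37 CPM in air and 15.8, 16.6 and 19.1 CPM in silica lungs (log2 1.379 ± 0.11, adjusted p = 1.62e-05). Its silica values were tightly grouped and all above the air values. The subunits found in all cells rose less, Atp6v1b2 by log2 0.47 ± 0.072, Atp6v0a1 by log2 0.39 ± 0.049 and Atp6v1a by log2 0.35 ± 0.037.

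Among the enzymes, Ctsd, an aspartic protease, was at 1445, 1672, 1751, 1378 and 1680.2 CPM in air and 1871, 2243 and 2694 CPM in silica lungs (log2 0.51 ± 0.088, adjusted p = 0.00222), with no overlap. Ctsz rose from 140.5 to 216 CPM (log2 0.62 ± 0.086), Ctss, a protease that trims the MHC class II chaperone, from 106 to 157 CPM (log2 0.56 ± 0.076) and Ctsb from 844 to 1188 CPM (log2 0.49 ± 0.072). Npc2, which moves cholesterol out of lysosomes, rose more than most (log2 0.72 ± 0.11, adjusted p = 0.000774), and Psap, whose product is cut into the activators of sphingolipid breakdown, rose from 1319 to 1669 CPM (log2 0.34 ± 0.048). Ctsl did not pass (log2 -0.081 ± 0.054, adjusted p = 0.336).

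Many lysosomal genes carry an element bound by the factors TFEB and TFE3, so RefSeq promoters of the build GRCr8 (250 bases before to 50 after the start) were searched on both strands for TCACGTGA. Of 40 members 28 had a promoter in the table and 4 of these held the element (14.3%), as did 0.777% of all 33469 promoters: Atp6v0d1, Ctsd, Lamp1 and Mcoln1. A match is a description of letters and not of binding. Of the 4, Mcoln1 did not pass (log2 -0.0011 ± 0.059, adjusted p = 0.992) and Atp6v0d1 rose (log2 0.23 ± 0.052, adjusted p = 0.00956). The call of Lamp1 (log2 0.15 ± 0.041, adjusted p = 0.0287) was lost without each of 6 libraries (adjusted p 0.0525 to 0.07 without air 49, 51 or 53 or silica 59, 60 or 62). None of 19 promoters of the lipid-laden macrophage list held it. The 250 bases before the start of Ctsd are shown because it had the largest change among the 4, on the minus strand of chr1:206968822-206969071 (GRCr8), with the element in capitals from 11 to 4 bases before the start.
Ctsd: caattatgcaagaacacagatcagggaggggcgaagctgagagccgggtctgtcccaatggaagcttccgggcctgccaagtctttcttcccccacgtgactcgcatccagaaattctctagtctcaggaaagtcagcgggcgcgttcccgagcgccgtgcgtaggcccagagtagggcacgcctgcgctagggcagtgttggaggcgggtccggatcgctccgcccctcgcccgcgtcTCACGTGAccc

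**Figure D2:**
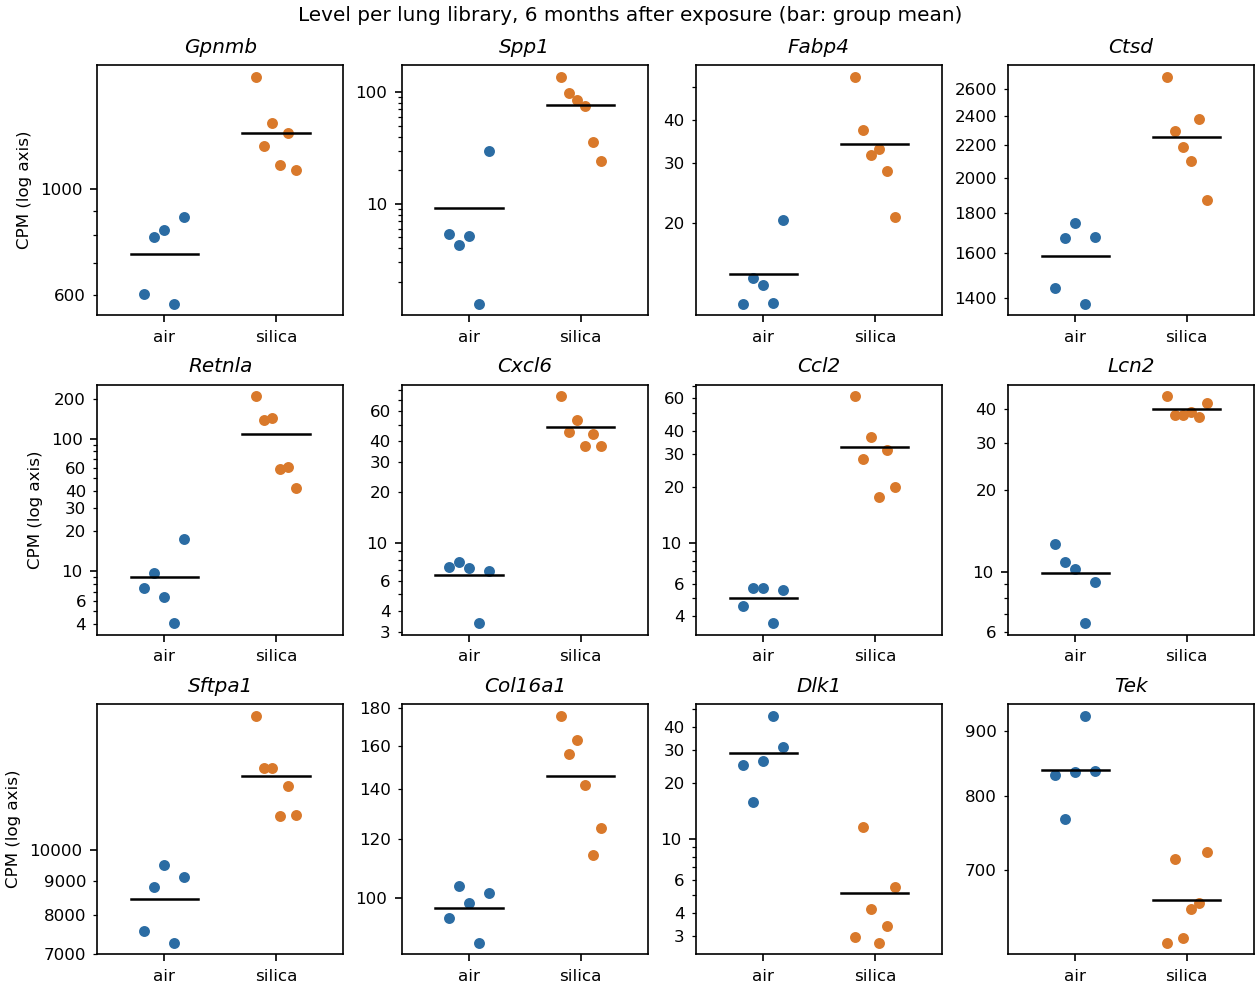
Level of 12 genes in each of the 11 lung libraries, in CPM on a log axis, with 1 point per animal (blue, 5 air; orange, 6 silica) and a bar at each group's mean. In 11 of the 12 panels the groups are apart, with all silica lungs above air or, for Dlk1 and Tek, below; in the Spp1 panel air lung 54 lies among the silica lungs.

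Several genes that osteoclasts share with macrophages rose. Among 11 tested members of 15, 6 rose and 0 fell, beside 9.84% higher and 6.38% lower of all genes. Ctsk, the collagen-cutting cathepsin, went from 29.5 ± 5.74 to 53.3 ± 11.1 CPM (SD; log2 0.86 ± 0.15, adjusted p = 0.00279). Acp5, the tartrate-resistant acid phosphatase, rose from 59.5 to 96.7 CPM (log2 0.70 ± 0.14), and Tnfrsf11a, the receptor RANK, from 12.6 to 20.3 CPM (log2 0.69 ± 0.095). Calcr, Dcstamp and Siglec15, which mark the osteoclast more closely, had too few counts to be tested, and Nfatc1 did not pass (log2 -0.031 ± 0.077, adjusted p = 0.827). Of 15 tested members of 16 resident and interstitial macrophage genes 9 rose and 1 fell. Siglec1, a sialic acid receptor, went from 20.6 to 36.7 CPM (log2 0.84 ± 0.19, adjusted p = 0.00918), the mannose receptor Mrc1 from 226 to 302 CPM (log2 0.42 ± 0.066), and the lipid-sensing nuclear receptor Pparg from 17.2 to 23.6 CPM (log2 0.45 ± 0.11, adjusted p = 0.0151). The siglec and Pparg values overlapped between the groups.

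Monocyte genes did not follow. Shares called here stand beside 9.84% higher and 6.38% lower of all genes, and the share of dendritic cell genes that fell was close to the latter. Among 12 tested members of 13, 1 rose, the endotoxin co-receptor Cd14 (log2 0.49 ± 0.089, adjusted p = 0.00297), and 4 fell, with a median of log2 -0.18. F13a1, coagulation factor XIII of monocytes and tissue macrophages, fell from 8.37 to 5.36 CPM (log2 -0.64 ± 0.13, adjusted p = 0.00609). Plac8 also fell (log2 -0.30 ± 0.077, adjusted p = 0.0192), while Cx3cr1 (log2 -0.016 ± 0.12, adjusted p = 0.946) did not pass. Of 16 tested members of 17 dendritic cell genes 4 rose and 1 fell: Clec9a, a receptor for dead cells, rose (log2 0.50 ± 0.11, adjusted p = 0.0106) and Zbtb46, a factor of classical dendritic cells and endothelium, fell (log2 -0.41 ± 0.08, adjusted p = 0.00472).

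Genes linked to type 2 responses moved in both directions. Retnla, a resistin-like secreted protein, was at 7.44, 9.73, 6.45, 4.05 and 17.6 CPM in air and 42.4, 99.6 and 209 CPM in silica lungs (log2 3.59 ± 0.49, adjusted p = 0.000517). The lowest silica lung was above the highest air lung, and the silica lungs differed among themselves by several fold. The chitinase Chia rose from 149 ± 54.2 to 606 ± 236 CPM (SD; log2 2.03 ± 0.29, adjusted p = 0.000696) and the chitinase-like Chi3l1 from 218 ± 25.9 to 499 ± 56.7 CPM (SD; log2 1.19 ± 0.089, adjusted p = 1.44e-05). Arg1, arginase 1, rose from 26.5 to 42.6 CPM (log2 0.69 ± 0.1, adjusted p = 0.000842). Il33, an alarmin, fell from 526 ± 38.3 to 396 ± 24.6 CPM (SD; log2 -0.41 ± 0.054, adjusted p = 0.000445), and its receptor Il1rl1 rose slightly (log2 0.38 ± 0.065, adjusted p = 0.00192). Il4 had too few counts to be tested, Il5 and Il13 were at 0 in all 11 libraries, and Ccl24 (log2 -0.64 ± 0.21, adjusted p = 0.057) and Ccl11 (log2 -0.0002 ± 0.34, adjusted p = 1) did not pass. In all 4 of 15 tested mast cell, eosinophil and type 2 genes rose and 3 fell, beside 9.84% higher and 6.38% lower of all genes.

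Many inflammatory chemokine genes rose. Among 22 tested members of 23 inflammatory chemokines 13 rose, 0 fell and 9 did not pass, with a median of log2 0.68; the count was 9 to 16 under the other settings and left-out libraries. Cxcl6, a ligand of the neutrophil receptor CXCR2, was at 7.22, 7.79, 7.19, 3.37 and 6.86 CPM in air and 37.4, 44.9 and 73.9 CPM in silica lungs (log2 2.91 ± 0.22, adjusted p = 1.46e-05). Cxcl1, of the same receptor, rose from 24.2 ± 3.64 to 49.6 ± 5.77 CPM (SD; log2 1.03 ± 0.1, adjusted p = 6.61e-05) and Cxcl3 from 329.6 to 485 CPM (log2 0.56 ± 0.047). The monocyte attractant Ccl2 was at 4.55, 5.68, 5.70, 3.67 and 5.57 CPM in air and 17.5, 29.8 and 61.5 CPM in silica lungs (log2 2.69 ± 0.32, adjusted p = 0.000212). Ccl7, which acts on the same receptor, was at 2.02, 2.1901, 1.24, 0.825 and 3.07 CPM and 4.75, 13.3 and 32.4 CPM (log2 3.02 ± 0.49, adjusted p = 0.00159). None of these 3 pairs of groups overlapped, while the highest silica value was more than 3 times the lowest for Ccl2 and Ccl7. Ccl9 (log2 1.19 ± 0.19, adjusted p = 0.00134), Ccl3 (log2 0.85 ± 0.17, adjusted p = 0.00522) and the membrane-bound Cx3cl1 (log2 0.55 ± 0.074, adjusted p = 0.000478) rose too. Of ligands that draw in T or B cells, Cxcl11 was called higher (log2 1.73 ± 0.51, adjusted p = 0.0352), a call lost without each of 5 libraries (adjusted p 0.0545 to 0.0823 without air 49, 51, 52, 53 or 54), while Ccl5 (log2 -0.46 ± 0.16, adjusted p = 0.0666), Cxcl10 (log2 0.81 ± 0.43, adjusted p = 0.227) and Cxcl13 (log2 -0.27 ± 0.52, adjusted p = 0.771) did not pass.

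The 300-base RefSeq promoters (GRCr8) were searched on both strands for GGGAA, any 3 bases and CC, a core of the site bound by NF-kappaB. It was in 8 of 18 chemokine promoters given (44.4%) and in 8 of 17 of an NF-kB feedback list (47.1%), as in 6.01% of all promoters. Of the 8 chemokines with it 4 were among those that rose, and of the 8 feedback genes 1. The 250 bases before the start are shown for Cxcl1 (minus strand, chr14:17479322-17479571) and Cxcl6 (minus strand, chr14:17596418-17596667) because they rose, lie near each other and hold the same 11-base run. The capitals mark matches, with overlapping matches of both strands joined. The shared run GGGAATTTCCC begins 84 bases before the start in Cxcl1 and 88 in Cxcl6, and Cxcl1 holds a further match beginning 103 bases before the start.
Cxcl1: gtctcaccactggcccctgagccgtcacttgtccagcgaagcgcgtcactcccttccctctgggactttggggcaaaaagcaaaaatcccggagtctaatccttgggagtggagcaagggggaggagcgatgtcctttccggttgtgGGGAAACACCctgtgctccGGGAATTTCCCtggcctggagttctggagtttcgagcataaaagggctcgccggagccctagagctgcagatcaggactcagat
Cxcl6: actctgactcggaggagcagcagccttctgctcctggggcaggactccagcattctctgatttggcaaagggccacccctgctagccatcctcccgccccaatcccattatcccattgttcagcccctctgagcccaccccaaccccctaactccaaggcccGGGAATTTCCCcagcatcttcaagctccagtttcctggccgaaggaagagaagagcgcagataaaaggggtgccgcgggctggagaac

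NF-kB feedback and interferon genes gave few calls, beside 9.84% higher and 6.38% lower of all genes. The share of NF-kB feedback genes that rose was close to that of all genes. Of 19 tested members of 20 NF-kB subunits and feedback genes 2 rose, Tnfaip2 (log2 0.65 ± 0.12, adjusted p = 0.00332) and Nfkbiz (log2 0.38 ± 0.087, adjusted p = 0.00989), and 0 fell. The inhibitors Nfkbia (log2 -0.21 ± 0.21, adjusted p = 0.527) and Tnfaip3 (log2 -0.18 ± 0.12, adjusted p = 0.347) and the adhesion gene Icam1 (log2 -0.069 ± 0.045, adjusted p = 0.334) did not pass. Among 26 tested members of 26 interferon-stimulated genes 1 rose and 2 fell, with a median of log2 0.087. Bst2 (log2 -0.18 ± 0.041, adjusted p = 0.0119) and Gbp5 (log2 -0.25 ± 0.064, adjusted p = 0.0179) fell. Isg15 did not pass (log2 0.07 ± 0.087, adjusted p = 0.634). The member that rose was the chemokine gene Cxcl11, described above.

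Neutrophil genes rose in part. Of 17 tested members of 20, 7 rose and 0 fell. S100a9, a calcium-binding alarmin, was at 121, 128, 89.7, 103 and 157 CPM in air and 263, 350.5 and 412 CPM in silica lungs (log2 1.51 ± 0.14, adjusted p = 5.87e-05), and its partner S100a8 rose from 45.01 to 75.4 CPM (log2 0.75 ± 0.14). Ncf1, a subunit of the phagocyte oxidase that other myeloid cells also make, rose (log2 0.56 ± 0.075, adjusted p = 0.000471). Defining neutrophil genes did not pass, Csf3r (log2 0.039 ± 0.096, adjusted p = 0.828), Cxcr2 (log2 0.26 ± 0.11, adjusted p = 0.141) and Mmp8 (log2 0.0015 ± 0.17, adjusted p = 0.996), Ltf was at 0 in all libraries, and Mpo and Elane had too few counts. Among 17 tested members of 19 IL-1 family and inflammasome genes 4 rose, among them the receptor antagonist Il1rn from 38.2 ± 6.29 to 74.0 ± 18.2 CPM (SD; log2 0.95 ± 0.16, adjusted p = 0.0017), the decoy receptor Il1r2 (log2 1.381 ± 0.25, adjusted p = 0.00283) and the cytokine Il18 (log2 0.53 ± 0.078, adjusted p = 0.000775). Il1b (log2 0.12 ± 0.11, adjusted p = 0.527), Nlrp3 (log2 0.18 ± 0.072, adjusted p = 0.1) and Pycard (log2 -0.078 ± 0.061, adjusted p = 0.424) did not pass, and Casp1, which cuts both cytokines, fell (log2 -0.18 ± 0.046, adjusted p = 0.017).

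Lymphocyte genes gave few calls, those of T cells at shares close to the 9.84% higher and 6.38% lower of all genes. Of 20 tested members of 20 T cell genes 2 rose and 1 fell, and Cd3e (log2 0.023 ± 0.13, adjusted p = 0.927) and Cd4 (log2 -0.17 ± 0.083, adjusted p = 0.18) did not pass. The regulatory T cell factor Foxp3 did not pass either (log2 0.89 ± 0.34, adjusted p = 0.0962). Among 14 tested members of 15 NK and cytotoxic genes 13 had values below 0, with a median of log2 -0.41, but 1 was called, Gzmb, which encodes granzyme B (log2 -0.71 ± 0.21, adjusted p = 0.0345). That call was lost without each of 7 libraries (adjusted p 0.0521 to 0.0835 without air 51, 52 or 54 or silica 59, 60, 61 or 62). The count of falls in the NK and cytotoxic list ran from 0 to 7 under the other settings and left-out libraries. Of 13 tested members of 17 B and plasma cell genes 2 rose and 0 fell, and Ms4a1 (log2 -0.57 ± 0.2, adjusted p = 0.0751) and Mzb1 (log2 0.34 ± 0.28, adjusted p = 0.446) did not pass. In the lymphoid tissue list Ltb, which encodes lymphotoxin beta, rose from 25.4 ± 3.41 to 40.5 ± 3.26 CPM (SD; log2 0.67 ± 0.084, adjusted p = 0.00032), while Cr2 (log2 -0.72 ± 0.26, adjusted p = 0.0796) and Ccl19 (log2 -0.68 ± 0.37, adjusted p = 0.245) did not pass.

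Genes of alveolar type 2 cells, which make surfactant, rose. Among 16 tested members of 19, 13 rose and 1 fell, with a median of log2 0.45, and the summed level of the list was 45304 to 58395 CPM in air and 66539.7 to 86538 CPM in silica lungs. That sum also holds list members not named here and is not one of surfactant genes alone. Sftpa1, which encodes surfactant protein A, was at 7578, 8808, 9507, 7271 and 9106 CPM in air and 11238, 12865 and 15872 CPM in silica lungs (log2 0.61 ± 0.095, adjusted p = 0.00122). Sftpd, a collectin like it, rose from 899 ± 121 to 1402 ± 191 CPM (SD; log2 0.64 ± 0.1, adjusted p = 0.00148), and Sftpc, a membrane-active surfactant protein, rose by log2 0.39 ± 0.054. Sftpb did not pass (log2 0.13 ± 0.055, adjusted p = 0.115). Genes of surfactant lipid and its storage rose as well: the phospholipid remodelling enzyme Lpcat1 from 431 to 668 CPM (log2 0.63 ± 0.078), the lamellar body gene Lamp3 from 555 to 822 CPM (log2 0.57 ± 0.083) and the lipid pump Abca3 from 567 to 706 CPM (log2 0.32 ± 0.041). Cebpa, a factor of type 2 cells and macrophages, rose (log2 0.41 ± 0.069, adjusted p = 0.00186). The member that fell was Dlk1, a Notch-related surface protein, at 24.99, 15.7, 26.4, 46.3 and 31.1 CPM in air and 2.74, 3.80 and 11.6 CPM in silica lungs (log2 -2.49 ± 0.36, adjusted p = 0.000775); it had the largest fall of all genes eligible for naming.

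Some genes of lipid synthesis rose too, though most of those tested did not pass. Of 23 tested members of 25 genes of fatty acid and phospholipid synthesis 10 rose and 0 fell. Fasn, fatty acid synthase, rose from 617 ± 105 to 1096 ± 210.0 CPM (SD; log2 0.83 ± 0.14, adjusted p = 0.00162). So did Acsl4, which activates long-chain fatty acids, from 184 to 274 CPM (log2 0.58 ± 0.07), Dgat2, which makes triglyceride, from 42.0 to 64.0 CPM (log2 0.61 ± 0.051) and Acaca, which makes the first substrate of the pathway, from 61.3 to 76.7 CPM (log2 0.32 ± 0.064). Among 24 tested members of 25 cholesterol synthesis genes 9 rose and 0 fell, a count that ran from 3 to 12 under the other settings and left-out libraries. Fdps (log2 0.53 ± 0.096, adjusted p = 0.00277) and Sc5d (log2 0.35 ± 0.087, adjusted p = 0.0156) were among those that rose. The sterol element TCACNCCAC was in 0 of 17 cholesterol and 1 of 19 fatty acid promoters given, as in 1.12% of all promoters.

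**Figure D3:**
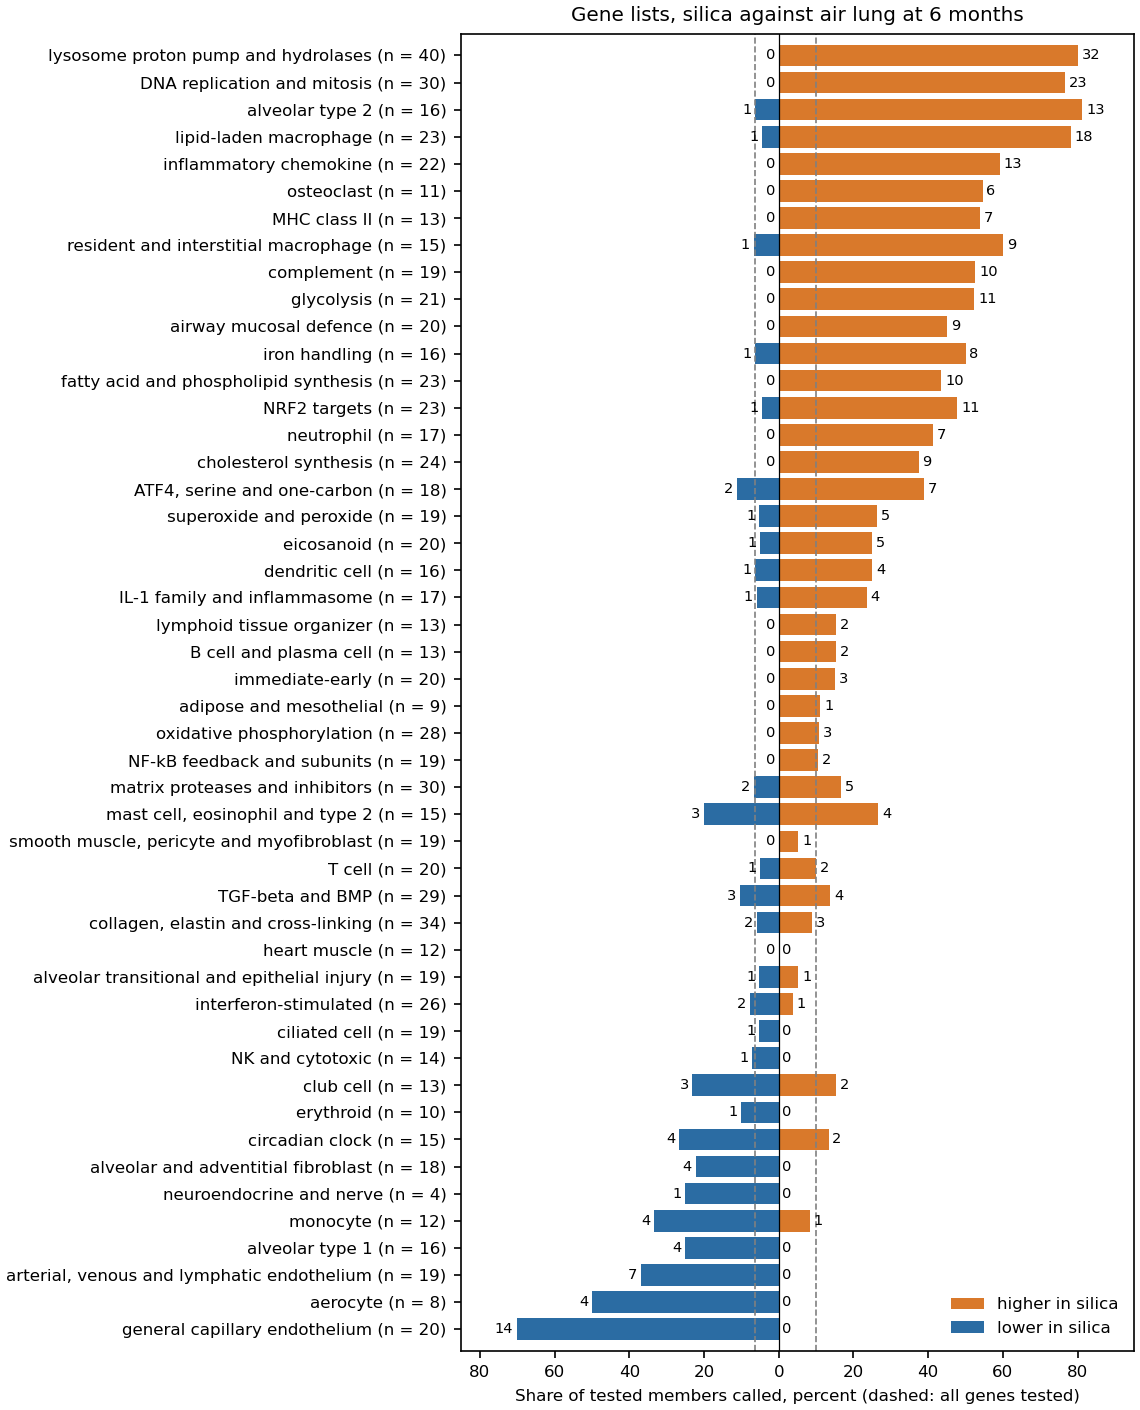
Share of tested members called higher (orange, right) or lower (blue, left) in silica lungs for each of the 48 gene lists, in percent, with the 2 counts beside each list. The dashed lines give the shares over all 15309 genes, 9.84% higher and 6.38% lower; lysosome, alveolar type 2 and lipid-laden macrophage lists reach furthest right and the general capillary list furthest left.

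Other epithelial groups moved otherwise, beside 9.84% higher and 6.38% lower of all genes. Calls of the ciliated list and of the injured or transitional list came at shares close to or below these. Of 16 tested members of 16 alveolar type 1 genes 0 rose and 4 fell, with a median of log2 -0.13. Ager, the first gene listed, fell (log2 -0.14 ± 0.042, adjusted p = 0.0403). Its call was lost without each of 6 libraries (adjusted p 0.0523 to 0.0915 without air 49 or 52 or silica 58, 59, 60 or 61). It was also lost under some other settings, such as with no count filter (adjusted p = 0.134). Cav1 (log2 -0.26 ± 0.064, adjusted p = 0.0164) and Cav2 (log2 -0.26 ± 0.051, adjusted p = 0.00445), which encode caveolins that endothelium also makes, fell, and Hopx (log2 -0.14 ± 0.061, adjusted p = 0.14) did not pass. Among 13 tested members of 14 club cell genes 2 rose, the haptoglobin gene Hp from 48.5 to 96.0 CPM (log2 0.99 ± 0.08, adjusted p = 1.95e-05) and the tight junction gene Cldn10 from 16.4 to 24.6 CPM (log2 0.59 ± 0.055, adjusted p = 5.7e-05). Another 3 fell, Cyp4b1 from 745 to 589 CPM (log2 -0.34 ± 0.037, adjusted p = 0.000125) among them. Scgb1a1, the main secretory protein of the club cell, did not pass (log2 -0.20 ± 0.1, adjusted p = 0.214). Of 19 tested members of 20 ciliated cell genes 18 had values below 0, with a median of log2 -0.25, but 1 was called, Tppp3 (log2 -0.26 ± 0.071, adjusted p = 0.0255), whose call was lost without each of 3 libraries (adjusted p 0.0582 to 0.0608 without air 49, 51 or 52). Among 19 tested members of 25 genes of injured or transitional epithelium 1 rose, the urokinase receptor Plaur (log2 0.96 ± 0.14, adjusted p = 0.000775), which myeloid cells also make, and 1 fell, the matrix gene Cyr61 (log2 -0.64 ± 0.2, adjusted p = 0.0473). That fall was lost without each of 8 libraries (adjusted p 0.0519 to 0.115 without air 49, 52, 53 or 54 or silica 58, 59, 61 or 64). Krt8 (log2 -0.016 ± 0.064, adjusted p = 0.899), Cldn4 (log2 0.33 ± 0.15, adjusted p = 0.166) and Cdkn1a (log2 0.28 ± 0.21, adjusted p = 0.396) did not pass.

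Airway mucosal defence genes held some of the largest changes. Of 20 tested members of 28, 9 rose and 0 fell, and Ltf and Tff2 were at 0 throughout. Slc26a4, which encodes the anion exchanger pendrin, was at 9.97, 12.4, 11.4, 4.80 and 16.9 CPM in air and 55.9, 89.4 and 160.5 CPM in silica lungs (log2 3.10 ± 0.33, adjusted p = 0.000116). Lcn2, which encodes a protein that withholds iron from bacteria, was at 12.6, 10.9, 10.2, 6.45 and 9.20 CPM and 37.4, 38.5 and 44.6 CPM (log2 2.01 ± 0.12, adjusted p = 8.88e-06), the smallest p of the comparison. Both were without overlap. Bpifb1, an airway secretory protein, was at 16.2, 4.54, 1.90, 1.72 and 6.534 CPM and 28.8, 51.1 and 95.3 CPM (log2 3.13 ± 0.51, adjusted p = 0.00149). The lactoperoxidase gene Lpo, the largest rise of all genes eligible for naming, was at 0.795, 0.0811, 0.0826, 0.0750 and 9.36 CPM and 17.3, 38.2 and 54.3 CPM (log2 4.198 ± 0.69, adjusted p = 0.00165). Its fold rests on air values near 0 in all but air lung 54. Without that lung it was log2 7.07 (adjusted p = 5.67e-05), and with limma-voom log2 6.41 (adjusted p = 0.0054). Pigr, which carries immunoglobulin A into secretions, rose from 1625 ± 154 to 2565 ± 156 CPM (SD; log2 0.66 ± 0.063, adjusted p = 5.87e-05), and the membrane mucin Muc1 from 176 to 296 CPM (log2 0.75 ± 0.11). Muc5b (log2 -0.77 ± 0.54, adjusted p = 0.365) and Bpifa1 (log2 -2.70 ± 1.12, adjusted p = 0.121) did not pass, and Muc5ac, the goblet cell mucin, had too few counts.

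Many endothelial genes fell. Among 20 tested members of 20 genes of general capillary endothelium 0 rose and 14 fell, with a median of log2 -0.23, and the falls ran from 10 to 16 under the other settings and left-out libraries. The angiopoietin receptor Tek was at 831, 768, 836, 926 and 837 CPM in air and 614, 656 and 723 CPM in silica lungs (log2 -0.34 ± 0.055, adjusted p = 0.00153). Eng, a TGF-beta co-receptor, fell from 888 ± 71.7 to 701 ± 51.5 CPM (SD; log2 -0.34 ± 0.061, adjusted p = 0.00261), Tmem100 from 637 to 498 CPM (log2 -0.36 ± 0.067) and the junction gene Cdh5 from 511 to 437 CPM (log2 -0.23 ± 0.049). Of 8 tested members of 8 aerocyte genes, of the large capillary cells of gas exchange, 4 fell, the endothelin receptor Ednrb (log2 -0.22 ± 0.049, adjusted p = 0.00915) and Car4 (log2 -0.36 ± 0.084, adjusted p = 0.0128) among them. Cyp4b1, given above with the club cell list, is on this list too and is counted in both. Among 19 tested members of 19 arterial, venous and lymphatic genes 7 fell, Efnb2 of arteries (log2 -0.38 ± 0.062, adjusted p = 0.00161) and Vwf of larger vessels (log2 -0.21 ± 0.056, adjusted p = 0.0225) among them. In these 3 lists together no gene rose. The globin share was also lower in silica lungs (values above), and its part in these results was not tested.

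Fibroblast and smooth muscle genes mostly had values below 0, while collagen genes gave few calls. Called shares stand beside 9.84% higher and 6.38% lower of all genes. Of 18 tested members of 20 fibroblast genes 17 had values below 0, with a median of log2 -0.20. In all 0 rose and 4 fell, the methyltransferase Inmt from 71.9 to 55.01 CPM (log2 -0.38 ± 0.077, adjusted p = 0.0051) and the proteoglycans Dcn from 204 to 142 CPM (log2 -0.53 ± 0.13, adjusted p = 0.0171) and Lum (log2 -0.40 ± 0.097, adjusted p = 0.0144) among them. Among 19 tested members of 20 smooth muscle, pericyte and myofibroblast genes 17 had values below 0, with a median of log2 -0.16. Of these 0 fell, and the falls ran from 0 to 5 under the other settings and left-out libraries. The 1 member that rose was Cthrc1, a secreted protein of matrix-making fibroblasts, from 2.94 to 4.75 CPM (log2 0.68 ± 0.16, adjusted p = 0.0143). Acta2, the smooth muscle actin (log2 -0.36 ± 0.13, adjusted p = 0.071), and Postn (log2 -0.12 ± 0.054, adjusted p = 0.149) did not pass. Of 34 tested members of 37 genes of collagen, elastin and their cross-linking 3 rose and 2 fell, shares close to those of all genes, with a median of log2 0.037. Col1a1, the main fibrillar collagen, was at 193, 189.8, 175, 152 and 170.4 CPM in air and 164, 188 and 206 CPM in silica lungs (log2 0.094 ± 0.069, adjusted p = 0.386). Col3a1 (log2 0.20 ± 0.079, adjusted p = 0.101), Fn1 (log2 0.16 ± 0.069, adjusted p = 0.132) and Lox (log2 0.059 ± 0.092, adjusted p = 0.712) did not pass either. Col16a1, a collagen that joins other fibrils, rose from 96.9 ± 6.619 to 146 ± 23.5 CPM (SD; log2 0.59 ± 0.1, adjusted p = 0.00196), with every silica lung above every air lung.

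Genes of matrix turnover and of TGF-beta signalling were called in both directions, beside 9.84% higher and 6.38% lower of all genes, though most did not pass. Among 30 tested members of 35 matrix proteases and inhibitors 5 rose and 2 fell. Mmp14, a membrane collagenase, rose from 79.5 to 114 CPM (log2 0.52 ± 0.072, adjusted p = 0.000635), and Plau, a plasminogen activator, fell from 49.8 to 41.8 CPM (log2 -0.25 ± 0.039, adjusted p = 0.00113). Of 29 tested members of 30 TGF-beta and BMP genes 4 rose and 3 fell. The receptor Tgfbr1 rose from 107 to 153 CPM (log2 0.52 ± 0.071, adjusted p = 0.000565), while the ligand Tgfb1 (log2 0.048 ± 0.066, adjusted p = 0.669) and the target Smad7 (log2 -0.15 ± 0.09, adjusted p = 0.3) did not pass.

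Many complement and antigen presentation genes rose. Among 19 tested members of 20 complement genes 10 rose and 0 fell. C3, the central component, was at 445, 463, 457, 347 and 494 CPM in air and 889, 1017 and 1105 CPM in silica lungs (log2 1.19 ± 0.084, adjusted p = 1.44e-05). Cfb, which cleaves it on surfaces, rose from 669 to 1193 CPM (log2 0.83 ± 0.098), C2 from 132 to 223 CPM (log2 0.76 ± 0.14), and Cfi, which inactivates it, from 11.8 ± 3.53 to 52.4 ± 24.4 CPM (SD; log2 2.15 ± 0.31, adjusted p = 0.000778). The 3 C1q genes rose by log2 0.37 to 0.49, C1qc least and C1qa most. Of 13 tested members of 13 genes of MHC class II molecules and their loading 7 rose and 0 fell, RT1-Bb from 424 to 570.3 CPM (log2 0.43 ± 0.064, adjusted p = 0.000913) and RT1-Da from 417 to 538 CPM (log2 0.37 ± 0.052) among them. Their master regulator Ciita did not pass (log2 0.18 ± 0.086, adjusted p = 0.181).

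Genes that handle oxidants and iron rose in part. Among 23 tested members of 25 NRF2 targets 11 rose and 1 fell. Hmox1, heme oxygenase, was at 42.1, 49.6, 48.8, 36.8 and 54.3 CPM in air and 74.4, 100.3 and 115 CPM in silica lungs (log2 1.06 ± 0.12, adjusted p = 0.000129). Srxn1, sulfiredoxin, rose from 10.02 ± 0.754 to 23.6 ± 4.60 CPM (SD; log2 1.24 ± 0.13, adjusted p = 7.94e-05). The classical targets Nqo1 (log2 0.14 ± 0.085, adjusted p = 0.292), Gclm (log2 -0.026 ± 0.052, adjusted p = 0.783) and Gclc (log2 0.047 ± 0.056, adjusted p = 0.619) did not pass, and Gstp1, a glutathione transferase, fell (log2 -0.30 ± 0.044, adjusted p = 0.000892). The antioxidant response element TGACNNNGC was in 8 of 21 promoters given (38.1%), as in 12.1% of all, and 2 of those 8 genes rose. Of 19 tested members of 20 superoxide and peroxide genes 5 rose and 1 fell. The fall, of the peroxidase gene Prdx6 (log2 -0.14 ± 0.041, adjusted p = 0.0378), was lost without each of 8 libraries (adjusted p 0.056 to 0.0862 without air 49, 51, 52 or 53 or silica 58, 60, 62 or 64). Sod2, the mitochondrial superoxide dismutase, rose from 167 ± 10.4 to 342 ± 41.7 CPM (SD; log2 1.04 ± 0.077, adjusted p = 1.44e-05). Noxo1, which organizes an epithelial oxidase, rose from 24.4 ± 5.35 to 68.7 ± 7.54 CPM (SD; log2 1.49 ± 0.13, adjusted p = 3.63e-05) and Cyba, a subunit of several oxidases, from 63.8 to 93.8 CPM (log2 0.56 ± 0.063). Sod1 (log2 0.0077 ± 0.041, adjusted p = 0.923) and Cat (log2 0.10 ± 0.046, adjusted p = 0.148) did not pass. Among 16 tested members of 18 iron genes 8 rose, the transferrin receptor Tfrc (log2 0.41 ± 0.052, adjusted p = 0.00033), the importer Slc11a2 (log2 0.50 ± 0.047, adjusted p = 5.4e-05), the ferritin gene Ftl1 from 1509 to 1979.6 CPM (log2 0.39 ± 0.063, adjusted p = 0.00144) and the reductase Steap3 from 3.44 to 6.91 CPM (log2 1.00 ± 0.16, adjusted p = 0.00142) among them, and 1 fell, the iron oxidase gene Heph (log2 -0.22 ± 0.056, adjusted p = 0.019). The exporter Slc40a1 did not pass (log2 -0.067 ± 0.09, adjusted p = 0.66).

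Metabolic genes split by pathway. Of 21 tested members of 21 glycolysis genes 11 rose and 0 fell. Hk3, a hexokinase of myeloid cells, rose from 19.9 ± 1.19 to 36.6 ± 3.49 CPM (SD; log2 0.88 ± 0.068, adjusted p = 1.52e-05), the glucose carrier Slc2a1 from 31.7 to 46.6 CPM (log2 0.55 ± 0.086) and the lactate exporter Slc16a3 from 15.2 to 26.3 CPM (log2 0.79 ± 0.11). Among 28 tested members of 30 genes of oxidative phosphorylation 3 rose and 0 fell, with a median of log2 0.034. The share that rose was close to the 9.84% of all genes. Of 18 tested members of 22 genes of the ATF4, serine and one-carbon list 7 rose, the serine synthesis gene Phgdh from 2.41 to 4.60 CPM (log2 0.93 ± 0.14, adjusted p = 0.000941), the mitochondrial folate enzyme Mthfd2 from 6.92 to 12.1 CPM (log2 0.80 ± 0.15, adjusted p = 0.00411) and the amino acid carrier Slc7a5 from 13.2 to 21.7 CPM (log2 0.72 ± 0.11, adjusted p = 0.000816) among them. Another 2 fell, Atf5 (log2 -0.16 ± 0.05, adjusted p = 0.0455) and Vldlr (log2 -0.21 ± 0.055, adjusted p = 0.023). The call of Atf5 was lost without each of 9 libraries (adjusted p 0.054 to 0.105 without air 49, 51, 52 or 53 or silica 58, 60, 61, 62 or 64) and that of Vldlr without each of 2 (adjusted p 0.0507 to 0.0512 without air 52 or 53). Atf4 (log2 0.093 ± 0.052, adjusted p = 0.252) and Ddit3 (log2 0.052 ± 0.077, adjusted p = 0.696) did not pass. Among 20 tested members of 22 eicosanoid genes 5 rose, the leukotriene genes Alox5 (log2 0.38 ± 0.05, adjusted p = 0.000407), Alox5ap (log2 0.32 ± 0.054, adjusted p = 0.00183) and Lta4h (log2 0.35 ± 0.077, adjusted p = 0.00908) among them, and 1 fell, the lipoxygenase gene Alox15 (log2 -0.37 ± 0.11, adjusted p = 0.032), a call lost without each of 7 libraries (adjusted p 0.0535 to 0.0705 without air 49, 51 or 53 or silica 58, 60, 62 or 64). The prostaglandin synthases Ptgs1 (log2 0.045 ± 0.063, adjusted p = 0.68) and Ptgs2 (log2 -0.031 ± 0.29, adjusted p = 0.957) did not pass.

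Genes of dividing cells rose. The counts of this and the next 2 lists stand beside 9.84% higher and 6.38% lower of all genes. Of 30 tested members of 30 replication and mitosis genes 23 rose and 0 fell, with a median of log2 0.69 and a count of 19 to 23 under the other settings and left-out libraries. Mki67, a protein of cycling cells, was at 19.4, 21.3, 16.9, 19.0 and 24.3 CPM in air and 30.3, 34.0 and 44.1 CPM in silica lungs (log2 0.80 ± 0.11, adjusted p = 0.000487). Rrm2, which makes deoxynucleotides, rose from 9.24 ± 1.09 to 21.7 ± 2.82 CPM (SD; log2 1.23 ± 0.11, adjusted p = 3.23e-05), and the mitotic kinase gene Cdk1 from 5.08 to 9.45 CPM (log2 0.89 ± 0.1). Which cells were dividing was not measured. Among 20 tested members of 20 immediate-early genes 3 rose and 0 fell, and Fos (log2 -0.65 ± 0.32, adjusted p = 0.189) and Egr1 (log2 -0.64 ± 0.26, adjusted p = 0.114) did not pass. Of 15 tested members of 16 clock genes 2 rose, Bhlhe41 from 30.5 to 53.9 CPM (log2 0.82 ± 0.089, adjusted p = 0.000125) and Bhlhe40 (log2 0.37 ± 0.088, adjusted p = 0.0129). A further 4 fell, Arntl (log2 -0.21 ± 0.036, adjusted p = 0.00214) and Cry2 (log2 -0.24 ± 0.041, adjusted p = 0.00231) among them. The labels do not give the hour at which the animals were killed, so an effect of that hour cannot be told apart from treatment.

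Large falls were fewer than large rises. Within the genes eligible for naming, the largest fall after that of Dlk1 to pass under every left-out library was that of Tesc, tescalcin, from 7.05 ± 0.985 to 4.12 ± 0.432 CPM (SD; log2 -0.77 ± 0.11, adjusted p = 0.000842). Next came Moap1, a modulator of apoptosis, from 8.77 to 5.13 CPM (log2 -0.76 ± 0.19, adjusted p = 0.019), and Ddc, dopa decarboxylase, from 6.38 to 4.08 CPM (log2 -0.64 ± 0.12, adjusted p = 0.00405). A smaller fall was that of Emr4, an adhesion receptor of myeloid cells, from 14.6 to 9.72 CPM (log2 -0.59 ± 0.11, adjusted p = 0.00337). Moap1 was lost with all 4 lung groups in 1 model (adjusted p = 0.103). Gzmbl3, a granzyme gene (log2 -0.87 ± 0.27, adjusted p = 0.0467), was lost without each of 9 libraries (adjusted p 0.0572 to 0.113 without air 51, 52, 53 or 54 or silica 58, 59, 60, 61 or 62). On the side of the rises, a further gene with one of the smallest p was Ly6i, a lymphocyte antigen 6 gene, from 262 ± 30.9 to 634 ± 78.0 CPM (SD; log2 1.27 ± 0.095, adjusted p = 1.44e-05). Another was Met, the receptor of hepatocyte growth factor, from 143 ± 11.5 to 216 ± 6.23 CPM (SD; log2 0.60 ± 0.048, adjusted p = 1.87e-05).

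The difference between silica and air at 6 months was then set against that at 1 day, over all 23 lung libraries. Of 15786 genes tested the difference itself changed between the times in 217: 177 toward higher (1.12%) and 40 toward lower values (0.253%) at 6 months. At 1 day 2163 of 15331 genes (14.1%) passed. Over the 15154 genes tested at both times, 1018 passed at both in the same direction (41.3% of the 2462 called at 6 months and 47.4% of the 2146 called at 1 day), 702 of them higher and 316 lower. The opposite direction at the 2 times was taken by 25 genes. In all 25 the level was lower in silica lungs at 1 day and higher at 6 months. The interaction passed in all 25, which adds little, since they were picked for opposite calls in these same libraries. Of the 25, 9 are on the gene lists: Fabp4, Acp5, Ctsd, Axl, Pparg, Siglec1, Ncf1, Lta4h and Olr1. The 6-month call of Olr1 was lost without each of 6 libraries (adjusted p 0.0523 to 0.0873 without air 49, 51, 52 or 53 or silica 60 or 62).

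Tchh, which encodes trichohyalin, a structural protein known from hair follicles, had the smallest interaction p. It was at 17.8, 18.2, 17.9, 17.7 and 20.7 CPM in air and 29.4, 29.9 and 32.7 CPM in silica lungs at 6 months (log2 0.73 ± 0.052, adjusted p = 1.44e-05), against log2 -1.24 ± 0.17 at 1 day (difference log2 1.97 ± 0.19, adjusted p = 4.4e-06). Fabp4 went from log2 -0.82 ± 0.14 at 1 day to log2 1.27 (difference log2 2.09 ± 0.27, adjusted p = 0.000286). Ctsd went from log2 -0.39 ± 0.1 to log2 0.51 (difference log2 0.91 ± 0.15, adjusted p = 0.00187) and Ncf1 from log2 -0.43 ± 0.088 to log2 0.56 (difference log2 0.99 ± 0.12, adjusted p = 0.000168). Others of the smallest p were Krt79, a keratin (log2 -0.96 ± 0.13 at 1 day, log2 0.59 ± 0.13 at 6 months), and the neuroendocrine protease inhibitor gene Pcsk1n (log2 -0.55 ± 0.12 and log2 0.74 ± 0.095). They also held Gckr, the glucokinase regulator (log2 -0.30 ± 0.065 and log2 0.36 ± 0.067), and Abhd12, a lysophospholipid hydrolase (log2 -0.35 ± 0.08 and log2 0.32 ± 0.054). The lysosome list held 9 of its 40 members past the interaction test, all toward higher values at 6 months, with a median of log2 0.021 at 1 day, and the lipid-laden macrophage list 7 of 23.

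Other genes moved the other way between the times. Cxcl1 was log2 2.59 at 1 day and 1.03 at 6 months (difference log2 -1.55 ± 0.29, adjusted p = 0.00621), and Lcn2 3.05 and 2.01 (difference log2 -1.03 ± 0.24, adjusted p = 0.0241), both still higher in silica lungs. The interaction of Lcn2 was lost without air 49 (adjusted p = 0.0676). Toward higher values, Retnla went from log2 1.08 ± 0.18 to log2 3.59 (difference log2 2.51 ± 0.53, adjusted p = 0.0138). Sftpc went from log2 0.067 ± 0.055 to log2 0.39 (difference log2 0.32 ± 0.079, adjusted p = 0.0378) and Col16a1 from log2 0.03 ± 0.064 to log2 0.59 (difference log2 0.56 ± 0.12, adjusted p = 0.0188). The interaction of Sftpc was lost without each of 8 libraries (adjusted p 0.0531 to 0.0895 without air 49, 53 or 54 or silica 58, 59, 60, 61 or 62). For Ccl2 (log2 0.10 ± 0.37, adjusted p = 0.943) and Slc26a4 (log2 0.67 ± 0.43, adjusted p = 0.529) a difference between the times was not shown. The 1-day and 6-month libraries stand in separate tables and come from different animals, so that batch and time cannot be told apart in the levels, while each silica difference is within its own table.

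**Figure D4:**
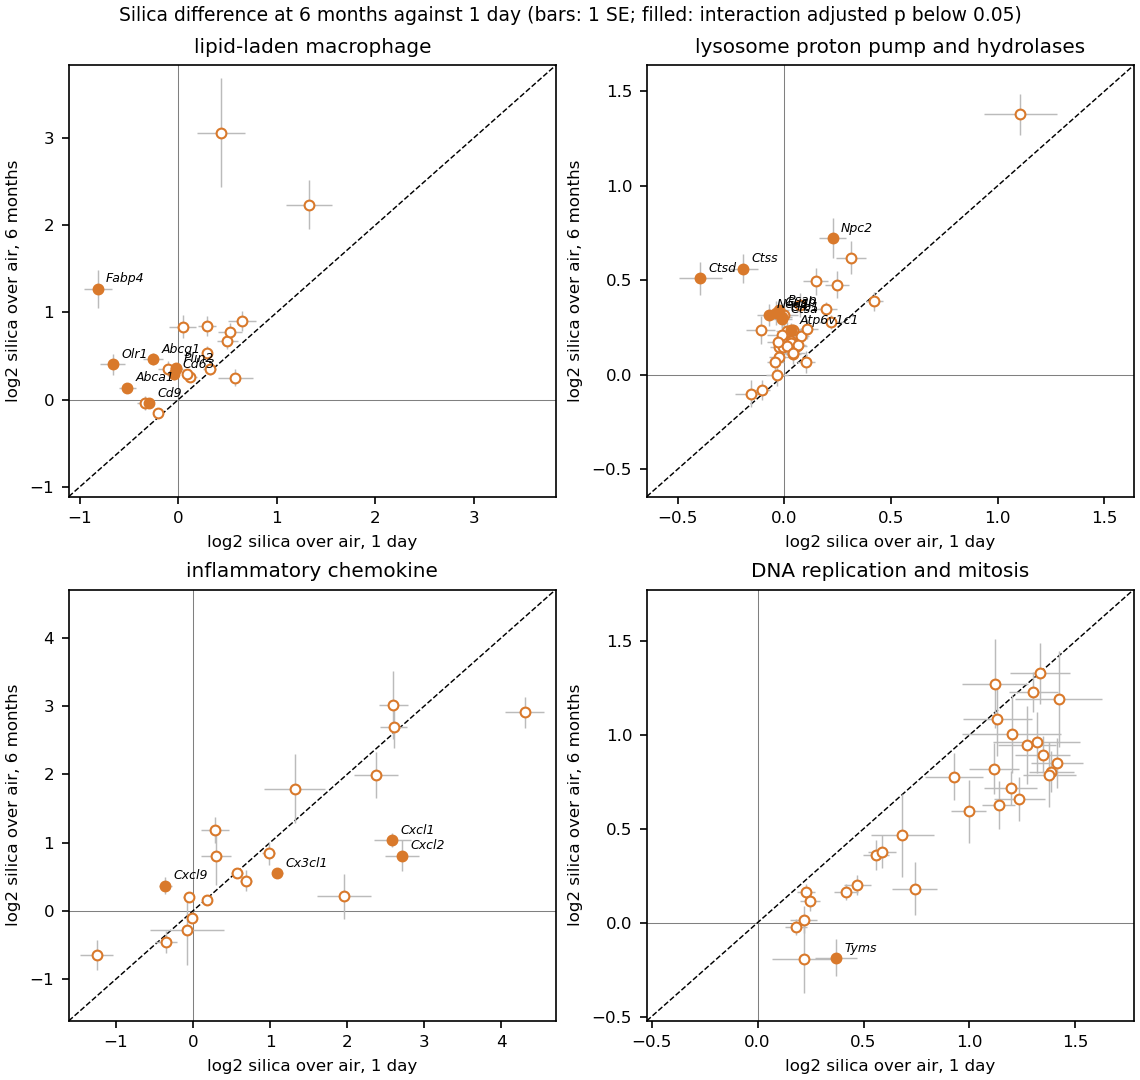
Log2 difference of silica over air lung at 1 day (x axis) against 6 months (y axis) for tested members of 4 gene lists, with bars of 1 SE and symbols filled where the interaction passed. Of lipid-laden macrophage members 22 of 23 lie above the diagonal of equal differences, as do 38 of 40 lysosome members, 8 of 21 chemokines and 1 of 30 replication genes.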

How the data were processed

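Lung RNA of 11 rats at 6 months, and of 12 at 1 day for the interaction, was used. The deposited table of each time holds the authors' estimated counts per gene (expected counts), which were rounded here. Per the submitters' processing notes, bcl2fastq 2.19, cutadapt 3.4, Trim Galore 0.6.7, STAR 2.6.1d and Salmon 1.10.1 were used, with build Rnor_6.0. Salmon shares reads among near-identical genes, so such genes are uncertain.

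Genes were filtered with filterByExpr (minimum count 10), scaled by TMM and tested in edgeR 4.0.16 (R 4.3.3) by the quasi-likelihood test with no covariate, with Benjamini-Hochberg adjustment over all genes. SE is the log2 difference over the square root of F. Alternatives used DESeq2 1.42.0, limma 3.58.1 and sva 3.50.0, other factors and filters, and each library left out. On simulated counts, 92% of 100 changes of log2 1 and 54% of 100 of log2 0.5 were recovered among 15309 genes, with 2 false calls; for the interaction, 78% and 53% among 15786, with 7 false calls.

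Totals, the globin share and the share of Rnr1 and Rnr2 were compared by exact permutation, adjusted over 22 tests with the summed levels of 19 cell marker lists. The design named these lists. A set of 3 tests was run first and one of 7 after its p-values were seen, neither of them as designed, and the designed 22 were restored after both; all 3 versions are given.

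The members, the 48 gene lists (963 symbols, 16 of them not found) and the tests were chosen with earlier results of these data known. On more than 1 list stood 42 symbols, so a gene can count in several lists. Named genes were the 15 largest rises, the 15 largest falls and the 10 smallest p among called genes of at least 5 CPM, the 10 smallest interaction p, and list members. For these rankings, names starting with LOC, RGD or AABR and symbols given to more than 1 gene model were not eligible. Replicate pairs of 1 group differed by 4.81 to 14.2 times the sampling variance, so none is a repeated library. Promoter sequences are from RefSeq (GRCr8), a later build than the files', and are matched by symbol. Some genes on the lists enter the counts but are not reported here by name.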

Additional observations from a re-analysis of the deposited data

Results flagged for a closer look

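In 500 groups (each tested gene named here except Ager, in air and in silica lungs), 44 held a lung set apart from the rest of its group by a gap above Dixon's 95% limit. Chance alone flags about 1 group in 20. Values are CPM, with the nearest other lung of the group in parentheses. Air lung 49 was high for Bpifa1 at 67.6 (7.06), Cxcl13 at 6.21 (2.18), Gclc at 38.1 (34.4) and Muc5b at 23.8 (6.21). Air lung 49 was low for Gckr at 27.8 (31.1) and Soat1 at 115 (138). Air lung 51 was high for Mmp14 at 86.5 (79.4). Air lung 52 was high for Cldn18 at 1093 (1010.0). Air lung 53 was low for Cxcl6 at 3.37 (6.86), Lta4h at 151 (169), Ly6i at 207 (269.8), Nfatc1 at 35.2 (42.5), Slc11a2 at 39.7 (45.2) and Tnfaip3 at 33.4 (48.0). Air lung 54 was high for Chia at 241 (139.9), Ciita at 33.2 (26.2), Fabp4 at 20.5 (13.9), Lpo at 9.36 (0.795), Mthfd2 at 9.28 (6.93), Orm1 at 0.968 (0.243), Phgdh at 3.31 (2.35), Slc40a1 at 30.2 (25.9), Spp1 at 29.9 (5.42) and Tchh at 20.7 (18.2). Silica lung 58 was high for Arg1 at 53.5 (42.1), C2 at 322 (223), Fabp5 at 315 (239), Fcgr1a at 39.7 (32.2), Fdps at 148 (113), Il18 at 45.5 (37.9), Krt8 at 179.8 (151), Lpcat1 at 833 (675), Serpina10 at 7.96 (5.37) and Smpdl3a at 221 (172). Silica lung 59 was high for Dlk1 at 11.6 (5.52). Silica lung 59 was low for Itgax at 63.6 (80.2). Silica lung 60 was low for Gimap5 at 47.6 (53.5). Silica lung 61 was low for Isg15 at 24.3 (30.6), Nfatc1 at 33.4 (41.2) and Tppp3 at 426 (488). Silica lung 62 was high for Atp6v0d2 at 19.1 (16.9) and Cxcl3 at 518 (483). Silica lung 64 was high for Bpifa1 at 9.49 (2.15) and Cr2 at 9.02 (5.57).

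The silica difference itself differed between 1 day and 6 months (edgeR interaction over 23 lung libraries, adjusted p below 0.05) in 43 of the named genes. Some of these were named for a small interaction p or for opposite calls at the 2 times, so the count is partly fixed by that choice. Over all 15786 genes tested 1.12% passed toward higher and 0.253% toward lower values at 6 months. Values are log2, the 6-month difference minus the 1-day difference. Furthest toward higher values at 6 months stood Retnla by 2.51, Fabp4 by 2.09, Tchh by 1.97, Krt79 by 1.55, Cfi by 1.483, Siglec1 by 1.36, Pcsk1n by 1.30, Spic by 1.16, Acp5 by 1.16, Olr1 by 1.08 and C2 by 1.03. Smaller shifts in that direction were those of Ncf1 by 0.99, Ctsd by 0.91, Bhlhe41 by 0.90, Pparg by 0.89, Siglec10 by 0.85, Naaa by 0.84, Smpdl3a by 0.76, Ctss by 0.76, Alox15 by 0.75, Abcg1 by 0.73, Abhd12 by 0.68, Gckr by 0.67, Il18 by 0.67, Plaur by 0.67, Abca1 by 0.66 and Lta4h by 0.66. The smallest were those of Ftl1 by 0.59, Axl by 0.57, Col16a1 by 0.56, Cebpa by 0.52, Npc2 by 0.50, Lpcat1 by 0.48, Cd33 by 0.43, Plin2 by 0.39, Sftpb by 0.37, Psap by 0.37 and Sftpc by 0.32. Toward lower values at 6 months went Cxcl1 by -1.55, Il1b by -1.05, Lcn2 by -1.03, Cx3cl1 by -0.53 and Ltb by -0.47. Of these 43 calls 33 held without each 6-month library in turn, and 10 were lost without at least 1 (adjusted p 0.0513 to 0.11): Cd33 and Npc2 in 9 of the 11 cases, Sftpc in 8, Ltb, Plaur and Sftpb in 6, Cfi and Il18 in 4, and Lcn2 (without air 49) and Lpcat1 (without air 53) in 1. The direction held in all 43.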

How the results depend on the processing

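The count of genes called at 6 months, 2484, was 1863 to 2610 without each library in turn, 2273 after thinning to the smallest total (chosen after seeing the data) and 2134 to 3004 under the other tests, factors, filters and models, but 77 in a test against a 1.5-fold change. Called list entries numbered 333, and 31 in that test. The interaction count of 217 was 158 to 250 without each 6-month library and 351 with DESeq2. Of 188 named genes called at 6 months, Ager not counted, 176 passed under every setting that tested them other than the 1.5-fold test, which ended 155 of the calls. The other 12 were Alox15, Atf5, Cxcl11, Cyr61, Gzmb, Gzmbl3, Lamp1, Moap1, Olr1, Prdx6, Tppp3 and Vldlr. Direction held in all 188. Of 62 named genes not called, 15 passed under at least 1 setting.

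The difference in total counts, 3776721 (adjusted p = 0.04329 by exact permutation), ran from 3106820 to 4494271 without each library. It passed in 3 of these 11 cases (without air 49, silica 58 or silica 64), and not when adjusted with 4 lists in place of 19 (3776721, adjusted p = 0.06061). The globin share differed by -0.155 percentage points, and by -0.188 to -0.132 without each library. It passed without air 54 or silica 61, and when adjusted over 3 tests (-0.155, adjusted p = 0.0455). The 3-test and 7-test sets were tried after the data were seen. The difference in the share of Rnr1 and Rnr2 was -0.00276, 0.000893 by medians and -0.00544 to 0.00296 without each library, with no call. The cause of these shifts was not tested.

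No paired analysis was possible because no animal number occurs in both the air and the silica group. In simulated counts at these depths the test recovered 92% of 100 changes of log2 1 and 54% of 100 of log2 0.5. Far fewer genes changed there than were called in the data, which makes the adjusted threshold stricter. These rates therefore do not give the share of differences missed here.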

Other observations

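Some gene groups on none of the lists also differed between silica and air lungs at 6 months. They were chosen after their values had been seen, so the values are a description and carry no test over a group. The first are plasma proteins known mainly as products of the liver. Orm1, which encodes an acute-phase glycoprotein, was at 0.0722, 0.243, 0.165, 0.0750 and 0.968 CPM in air and 1.86, 2.68 and 7.07 CPM (lowest, median and highest) in silica lungs (log2 3.46 ± 0.59, adjusted p = 0.00205). Every silica lung lay above every air lung. Itih1, a hyaluronan-binding chain, rose from 1.483 ± 0.470 to 7.33 ± 1.504 CPM (SD; log2 2.31 ± 0.22, adjusted p = 5.7e-05), Kng1, kininogen, from 5.00 to 16.0 CPM (log2 1.67 ± 0.27, adjusted p = 0.00163), and Hpx, which binds free heme, from 3.05 to 7.01 CPM (log2 1.1999 ± 0.11, adjusted p = 5.4e-05). Fetub rose from 141 ± 19.5 to 271 ± 27.8 CPM (SD; log2 0.94 ± 0.092, adjusted p = 6.57e-05), C4bpa, a complement inhibitor, from 58.5 to 153 CPM (log2 1.388 ± 0.15, adjusted p = 0.000113), Fgg, the fibrinogen gamma chain, from 153 to 231 CPM (log2 0.59 ± 0.094, adjusted p = 0.00135), and Tf, transferrin, from 93.3 to 129.6 CPM (log2 0.47 ± 0.093, adjusted p = 0.00454). Cpb2 (log2 0.90 ± 0.16, adjusted p = 0.00222) and Serpina10 (log2 0.83 ± 0.18, adjusted p = 0.00918), both of the clotting system, rose as well. Itih3 (log2 0.86 ± 0.37, adjusted p = 0.14) and Itih4 (log2 0.65 ± 0.23, adjusted p = 0.0676) did not pass. Itih2, Ahsg, Plg, F2 and Ambp had too few counts, Ambp with 0 in all 11 libraries. A list of 12 hepatocyte genes, also drawn up after the values were seen, summed to 18.7 to 32.7 CPM in air and 19.0 to 25.1 CPM in silica lungs, with 0 of 2 tested members called.

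Gimap genes encode GTPases known for lymphocyte survival, and some are also made by endothelium. All 7 that were looked at (Gimap1, 4, 5, 6, 7, 8 and 9) fell, by log2 values between -0.22 and -0.31. Gimap5 fell from 64.7 ± 3.51 to 52.9 ± 2.596 CPM (SD; log2 -0.29 ± 0.046, adjusted p = 0.00135) without overlap between groups, whereas the groups overlapped for Gimap7 and Gimap9. Among surface receptors of myeloid cells, Itgax, the CD11c integrin chain, rose from 46.1 ± 5.51 to 82.5 ± 9.75 CPM (SD; log2 0.84 ± 0.095, adjusted p = 0.000172). Slamf8 rose from 9.24 to 20.04 CPM (log2 1.12 ± 0.14, adjusted p = 0.00034), Cd300ld from 6.12 to 13.2 CPM (log2 1.11 ± 0.13, adjusted p = 0.000186), Cd33 from 11.05 to 19.3 CPM (log2 0.81 ± 0.087, adjusted p = 0.000125), the inhibitory Fc receptor gene Fcgr2b from 17.6 to 30.6 CPM (log2 0.80 ± 0.12, adjusted p = 0.00126), Csf2rb from 23.6 to 39.9 CPM (log2 0.76 ± 0.12, adjusted p = 0.0016), the flagellin receptor gene Tlr5 from 7.88 to 13.6 CPM (log2 0.78 ± 0.14, adjusted p = 0.00274) and Itgam from 29.0 to 45.9 CPM (log2 0.66 ± 0.14, adjusted p = 0.00741). Fcgr1a (log2 0.27 ± 0.094, adjusted p = 0.0678), Tlr2 (log2 0.23 ± 0.094, adjusted p = 0.108) and Tlr4 (log2 0.12 ± 0.089, adjusted p = 0.377) did not pass.

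Of the 25 genes lower in silica lungs at 1 day and higher at 6 months, some on no list belong to lysosomes or macrophages. Naaa, a lysosomal amidase, was log2 -0.47 ± 0.11 at 1 day and log2 0.37 ± 0.087 at 6 months, and Smpdl3a, a phosphodiesterase, log2 -0.32 ± 0.094 and log2 0.44 ± 0.11. Spic, a macrophage transcription factor, was log2 -0.63 ± 0.16 and log2 0.53 ± 0.11, and Siglec10, an inhibitory lectin, log2 -0.45 ± 0.12 and log2 0.40 ± 0.099.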
